A study of Homo sapiens with 72 samples.

Results

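Endocervical End1/E6E7 (Endo) cells that had been pretreated with spermine and then exposed to live Gardnerella vaginalis (SPM+GV) were compared with Endo cells that had been pretreated with putrescine before the same exposure (PUT+GV). The libraries were chosen by their group labels alone, 3 of SPM+GV and 3 of PUT+GV, which are 6 of the 72 libraries in the series. Beside Endo the series holds a vaginal line, VK2/E6E7 (VK2), and an ectocervical line, Ect/E6E7 (Ecto), all 3 human, epithelial and immortalized, and each was divided into 8 groups of 3 libraries by pretreatment and bacterial exposure. Polyamines were given 4 h before the bacteria, spermine (SPM) at 400 µM and putrescine (PUT) at 4 mM, and 10000000 CFU of G. vaginalis (GV) per well were then left on the cells for 24 h. The other groups used here are the same 2 pretreatments without bacteria (SPM+noGV and PUT+noGV). Cells with no polyamine, with bacteria (NT+GV) or without (NT+noGV), were used as well. The dose of the 2 compounds differed, so compound and dose cannot be told apart in any comparison below. Each line is a single culture line immortalized with papillomavirus E6 and E7 genes, which all groups carry, and the labels do not say whether replicate libraries came from separate cultures. The p-values therefore measure only the spread between these libraries, which may be technical.

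Putrescine, spermidine and spermine are small, positively charged molecules that cells make and import. Ornithine decarboxylase (ODC1) makes the diamine putrescine, and spermidine synthase (SRM) and spermine synthase (SMS) lengthen it by one aminopropyl group each to spermidine and then to spermine. Putrescine and spermine are thus the shortest and the longest of these polyamines. They bind nucleic acids, and cells hold their level steady through antizymes, acetylation and oxidation. G. vaginalis is an anaerobe that dominates the vaginal community in bacterial vaginosis, and cervical epithelial cells answer it through Toll-like receptors and NF-kB with cytokines, neutrophil chemokines and antimicrobial proteins.

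The 6 libraries held 26267371 to 32302458 estimated counts each in SPM+GV and 28738507 to 30452365 in PUT+GV. Long non-coding genes took 1.241 to 1.278% of counts in SPM+GV and 1.435 to 1.489% in PUT+GV, mitochondrial genes 4.608 to 4.908% and 4.946 to 5.096%, and 26680 to 27278 genes had a count in SPM+GV against 27823 to 28155 in PUT+GV. These shares were different in the 2 groups without overlap, and their part in the results was not tested. The cells carried epithelial markers at a high level, with KRT5 at 7160 to 7520 CPM (counts per 1000000 counts of the library, scaled with TMM factors) in SPM+GV and 7600 to 7700 in PUT+GV. KRT7 and PAX8, which mark the endocervical glandular lineage, were present, while the gel-forming mucin MUC5B lay at 0 to 0.0365 CPM in SPM+GV and 0.179 to 0.439 in PUT+GV. The 10 leukocyte markers summed to 55.5 to 61.2 CPM in SPM+GV and 71.3 to 77.9 in PUT+GV, nearly all of it CD68. The lymphocyte marker CD3D was at 0 in all 6 libraries and PTPRC, found on all leukocytes, did not pass 0.209 CPM. The 10 fibroblast markers summed to 41.8 to 48.6 CPM in SPM+GV and 63.6 to 70.3 in PUT+GV through COL1A1, while COL3A1 was at 0.0305 CPM or less.

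Spermine and putrescine left the infected Endo cells with widely different transcriptomes. Early response transcription factors, neutrophil chemokines, NF-kB feedback genes and interferon-stimulated genes were higher in SPM+GV, and genes of squamous differentiation, cell junctions and many histone genes were lower. Of 18741 genes tested with edgeR's quasi-likelihood test, 6011 were higher (32.1%) and 5146 lower (27.5%) in SPM+GV than in PUT+GV at an adjusted p under 0.05. Genes that in addition differed by a log2 fold change of at least 1 are referred to as called: 578 were called higher (3.08%) and 1550 called lower (8.27%), 11.4% in all. The log2 fold change is the log2 ratio of the fitted mean level in SPM+GV to that in PUT+GV, and its median over all tested genes was 0.0030. In these bulk libraries, fewer cells of a type and less RNA per cell cannot be told apart.

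The genes called lower were mostly scarce. Their median mean level was 0.711 CPM, and 1.22 CPM for the genes called higher, against 12.2 CPM over all tested genes. Long non-coding genes made up 32.1% of the genes called lower and 27.7% of those called higher, but 18% of all tested genes. At a mean of at least 2 CPM there were 235 genes called higher and 353 called lower. The member shares of each list below are to be read against the 32.1% and 27.5% of all tested genes that were higher and lower, and no list was tested as a set. Scaling by upper-quartile factors or by library size only moved the median of all tested genes to -0.11 and -0.14, so counts of members with small differences depend on the scaling, and turns of direction are given with the list.

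**Figure D1:**
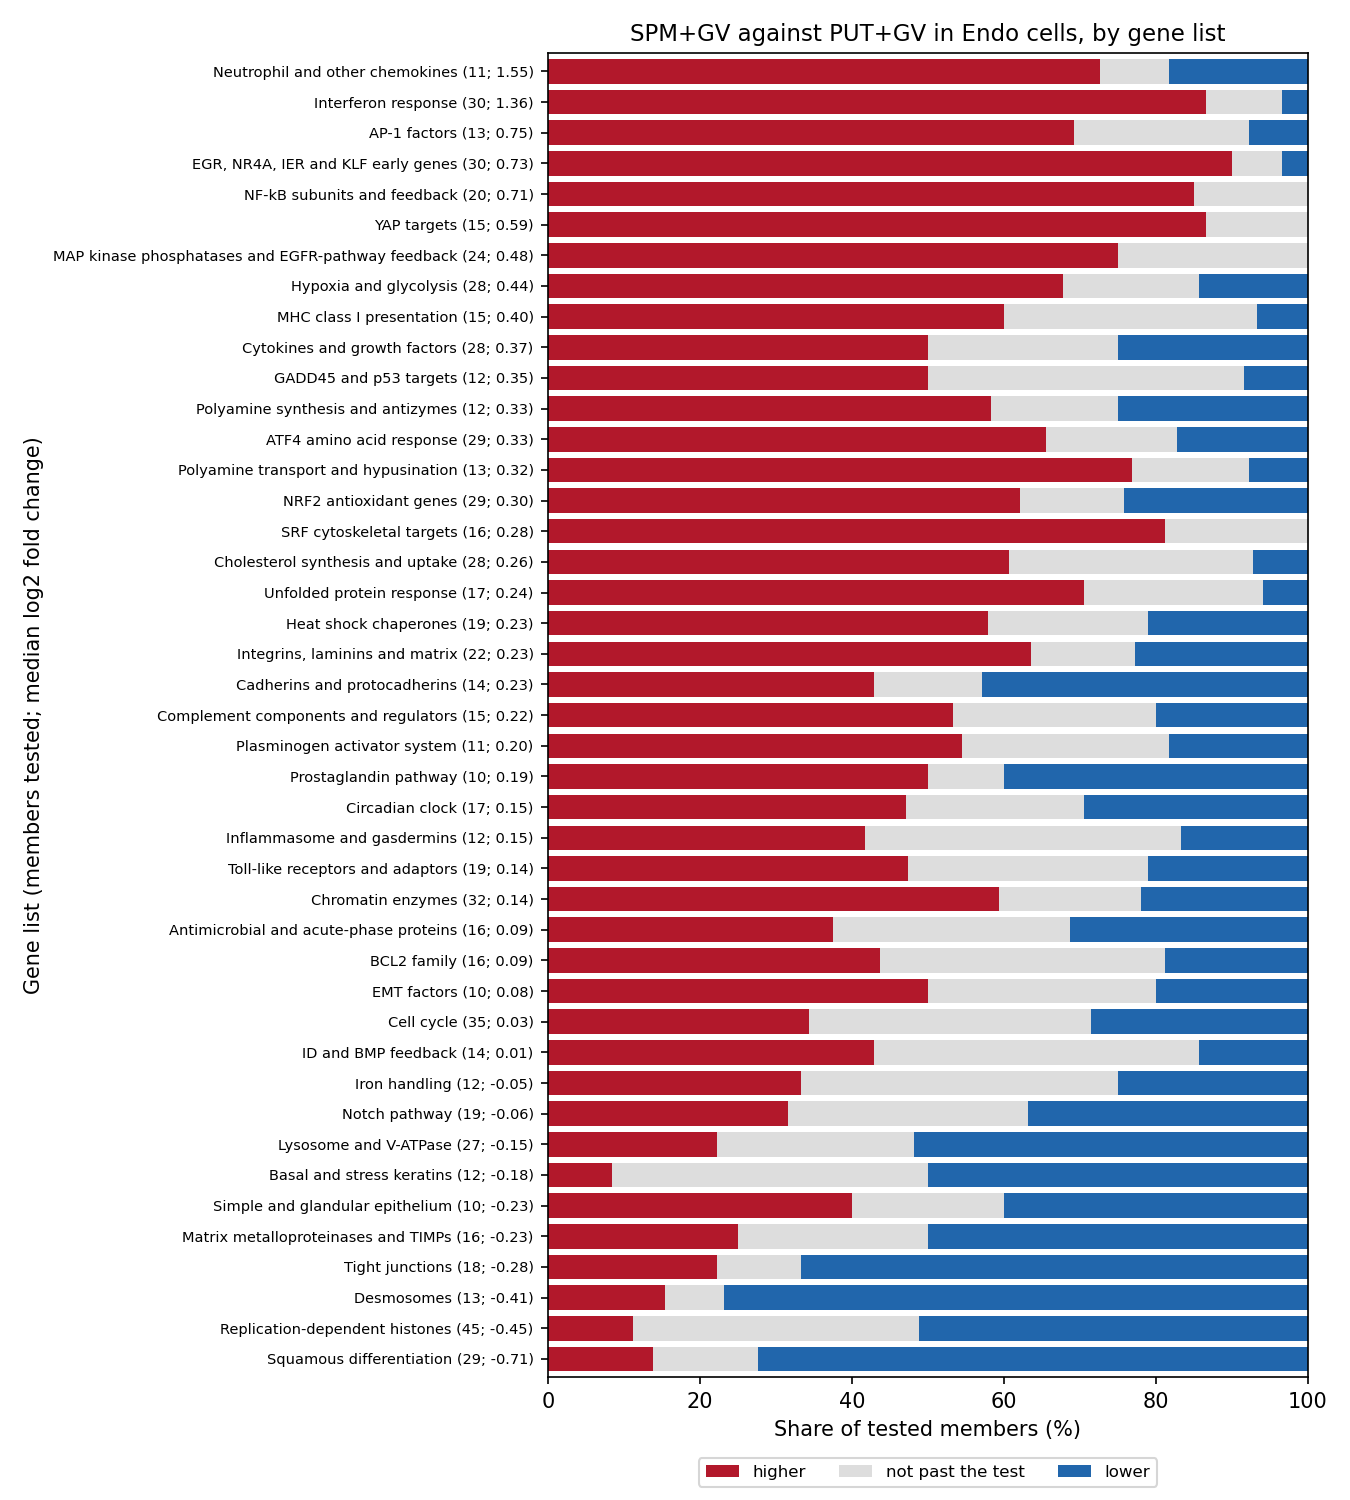
Share of the tested members of each gene list that were higher (red), lower (blue) or not past the test (grey) in SPM+GV against PUT+GV at an adjusted p under 0.05, with the number of tested members and their median log2 fold change in brackets. Of the lists drawn, chemokines (median 1.55) and interferon response genes (1.36) stand at the top and squamous differentiation (-0.71) and histone genes (-0.45) at the bottom.

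The enzymes that make polyamines were mostly higher in SPM+GV than in PUT+GV. Of 12 tested members of the synthesis and antizyme list, 7 were higher, 3 were lower and 1 was called, with a median log2 fold change of 0.33. ODC1 (chr2:10439968-10448327, GRCh38), which makes putrescine, was at 409.9, 444 and 424 CPM in SPM+GV, against 222, 229 and 206 CPM in PUT+GV. Every SPM+GV library lay far above every PUT+GV library (log2 fold change 0.96, SE 0.044, adjusted p = 1.1e-17), and the NT+GV libraries, at 312, 335 and 307 CPM, lay between. AZIN1, the antizyme inhibitor that protects ODC1 from degradation, had 144, 142 and 152 CPM in SPM+GV and 89.3, 86.8 and 91.02 CPM in PUT+GV, and was likewise higher in every SPM+GV library (log2 fold change 0.72, adjusted p = 3.8e-15). The downstream synthases SRM (0.44) and SMS (0.31), the salvage enzyme MTAP (0.45) and the ornithine-forming arginase ARG2 (0.47) were higher too, by smaller log2 fold changes. Against NT+GV, the list had 6 members higher and 1 lower in SPM+GV (median 0.14), and 4 and 5 in PUT+GV (median -0.054). Mean levels of AZIN1, SRM and SMS in NT+GV were 157.3, 90.1 and 219.3 CPM, slightly above those in SPM+GV (146.3, 89.35 and 213.7 CPM). Those of ODC1, MTAP and ARG2 were higher in SPM+GV than in NT+GV.

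AMD1, the decarboxylase that supplies the aminopropyl groups, moved the other way. It had 124, 119 and 132 CPM in SPM+GV and 191, 188 and 204 CPM in PUT+GV, and no library of one group reached the other (log2 fold change -0.63, SE 0.056, adjusted p = 5.1e-10). At 119.5, 118 and 135 CPM, the NT+GV libraries overlapped those of SPM+GV. AZIN2, a second antizyme inhibitor present at under 2 CPM, was the called member (-1.37, adjusted p = 5.5e-06), and the antizymes themselves split, with OAZ2 lower (-0.38) and OAZ1 higher by only 0.089 (adjusted p = 0.022), a value whose sign turned under other scalings.

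The catabolic enzymes differed little. SAT1, the acetyltransferase that starts polyamine breakdown, had 659, 726 and 724 CPM in SPM+GV and 589, 603 and 603 CPM in PUT+GV, higher in all 3 SPM+GV libraries by a log2 fold change of 0.23 (adjusted p = 2.1e-07), and both groups stood above NT+GV at 426, 426 and 422 CPM. SAT2 was lower (-0.46, adjusted p = 2.3e-07). Spermine oxidase SMOX had 15.3, 16.3 and 18.1 CPM in SPM+GV and 17.2, 17.2 and 18.4 CPM in PUT+GV, which overlap, and did not pass the test (-0.092, adjusted p = 0.26). The oxidase PAOX was near 1 CPM in both groups and did not pass either (0.56, adjusted p = 0.22). Of 13 transport and hypusination genes, 10 were higher and 1 lower (median 0.32), among them EIF5A (0.44), the translation factor that carries the spermidine-derived residue hypusine, and SLC3A2 (0.35), a transporter subunit linked to polyamine export. Against NT+GV, this list had 1 higher and 2 lower in SPM+GV (median 0.0077), and 2 and 8 in PUT+GV (median -0.33).

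Early response genes were higher with spermine, some of them many-fold. These are transcription factors and feedback regulators that growth factor, stress and cytokine signals switch on within minutes. Of 30 genes of the EGR, NR4A, IER and KLF families and their companions, 27 were higher, 1 was lower, 14 were called higher and 1 called lower, with a median of 0.73. Of 13 AP-1 factors, 9 were higher, 1 was lower and 3 were called higher (median 0.75). EGR1, a zinc finger factor at chr5:138465479-138469303, had 807, 1101 and 1036 CPM in SPM+GV against 41.2, 46.8 and 42.8 CPM in PUT+GV. The lowest SPM+GV library, replicate 1, still stood far above the highest PUT+GV library (log2 fold change 4.49, SE 0.11, adjusted p = 4.3e-16), and NT+GV at 42.3, 45.3 and 43.9 CPM matched PUT+GV in range. EGR1 is the best known target of serum response factor, which binds CArG boxes. The 250 bases before its start (RefSeq, GRCh38.p14, chr5:138465229-138465478, plus strand) are shown because 2 such boxes, in capitals, lie there, ending 95 and 73 bases before the start.
EGR1: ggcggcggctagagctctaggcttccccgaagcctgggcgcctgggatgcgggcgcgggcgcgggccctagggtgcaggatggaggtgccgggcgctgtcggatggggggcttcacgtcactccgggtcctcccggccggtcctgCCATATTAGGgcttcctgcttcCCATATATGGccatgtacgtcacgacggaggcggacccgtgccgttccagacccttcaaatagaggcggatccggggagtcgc

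FOS, the inducible partner of JUN in AP-1, had 218, 320.2 and 290.2 CPM in SPM+GV and 28.4, 32.7 and 29.5 CPM in PUT+GV (log2 fold change 3.19, SE 0.12, adjusted p = 2.9e-13). JUN followed with 549, 719.8 and 676 CPM in SPM+GV and 199.5, 199 and 189 CPM in PUT+GV (1.73, adjusted p = 2.8e-14), and the stress factor ATF3 with 233, 309.9 and 291 CPM in SPM+GV and 73.8, 73.9 and 67.3 CPM in PUT+GV (1.95, adjusted p = 5.2e-14). In each of these genes replicate 1 was the lowest SPM+GV library and still lay above all PUT+GV libraries. NR4A3, an orphan nuclear receptor, had 18.6, 21.9 and 22.8 CPM in SPM+GV and 2.83, 1.98 and 1.904 CPM in PUT+GV (3.24, adjusted p = 8.4e-19). PPP1R15A, which restores translation after stress, had 550.0, 667 and 631 CPM in SPM+GV and 190.0, 190.0 and 188 CPM in PUT+GV (1.70, adjusted p = 1.7e-22). JUNB (0.89), FOSB (0.86) and IER3 (0.39) were higher by less. The exceptions were the kinase SIK1 (-1.05, adjusted p = 0.01) and the AP-1 factor FOSL2 (-0.28, adjusted p = 8.6e-09), both lower in SPM+GV.

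The lists of genes that answer the same signals were also more often higher in SPM+GV than in PUT+GV. Of 24 MAP kinase phosphatases and EGF receptor ligands and feedback genes, 18 were higher and none lower (median 0.48; 2 and 3 lower under the other 2 scalings), with the ligands AREG (0.81) and EPGN (1.82) among them. Of 15 YAP targets, 13 were higher and none lower (median 0.59), including the YAP inhibitor AMOTL2 (1.03). Of 16 SRF cytoskeletal targets, 13 were higher and none lower (median 0.28), with the myosin MYH9 at 0.64. Against NT+GV these SRF targets were mostly lower, 2 higher and 10 lower in SPM+GV (median -0.14) and 1 and 14 in PUT+GV (median -0.46). The early gene list against NT+GV had 26 higher and 2 lower in SPM+GV (median 1.16), and 17 and 5 in PUT+GV (median 0.26). Of 12 GADD45 and p53 targets, 6 were higher and 1 lower (none without SPM+GV replicate 2 or 3 or PUT+GV replicate 1), led by GADD45B, a stress sensor, with 274, 335 and 318 CPM in SPM+GV and 57.8, 60.9 and 56.3 CPM in PUT+GV (2.40, adjusted p = 4.5e-21). GADD45 genes answer several stresses, also without p53.

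**Figure D2:**
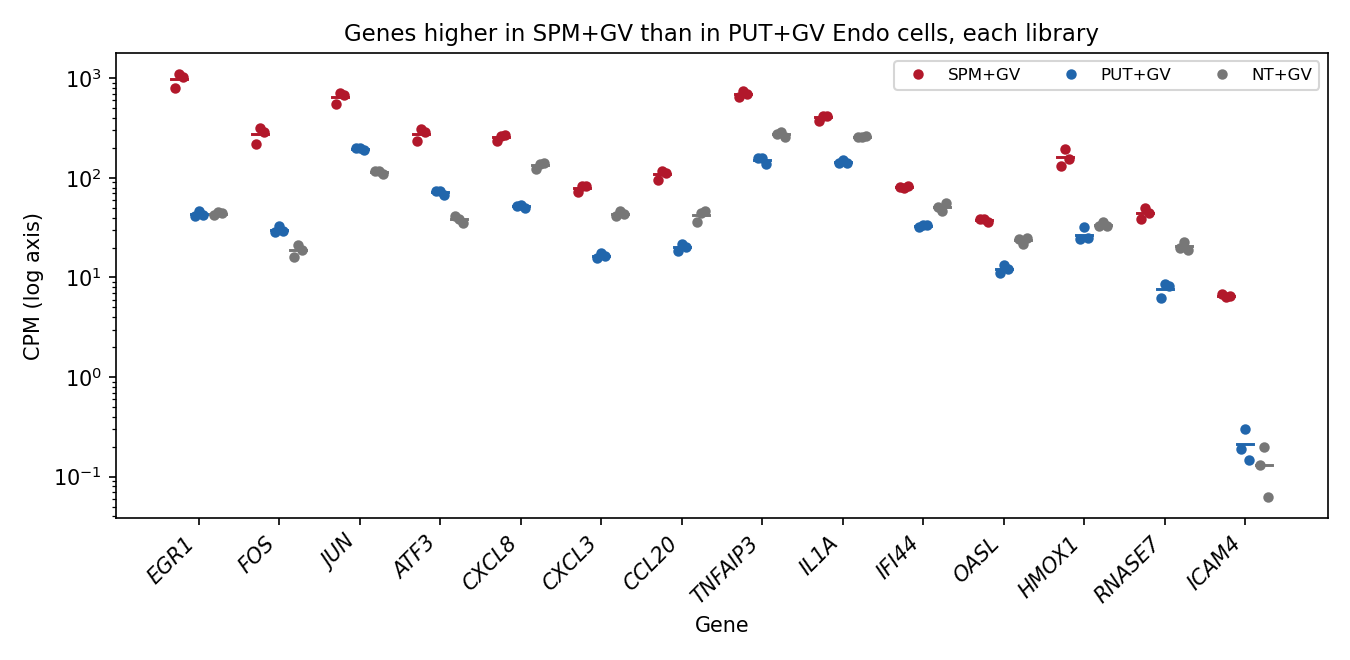
Level in CPM on a log axis of 14 genes higher in SPM+GV (red) than in PUT+GV (blue), with NT+GV (grey), each point a library and each line a group mean. In every gene drawn the 3 SPM+GV libraries lie above the 3 PUT+GV libraries, by a log2 fold change of 4.49 for EGR1 and 4.93 for ICAM4.

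Neutrophil chemokines were several-fold higher with spermine. Of 11 tested chemokines, neutrophil attractants and others, 8 were called higher, 2 were lower and none was called lower, with a median of 1.55. Among those called higher, CXCL10, CXCL11 and CCL5 were scarce, with means of 2.088, 1.961 and 1.429 CPM in SPM+GV. In PUT+GV their means were 0.5527, 0.6675 and 0.4955 CPM. CXCL8, the main attractant of neutrophils (chr4:73740519-73743716), had 233, 263 and 271 CPM in SPM+GV and 52.05, 53.6 and 50.2 CPM in PUT+GV. The groups were far apart (log2 fold change 2.30, SE 0.062, adjusted p = 9.8e-20) and NT+GV lay between them at 123, 136 and 142 CPM. CCL20, which draws dendritic cells and T helper cells, had 94.8, 117 and 113 CPM in SPM+GV and 18.6, 21.5 and 20.5 CPM in PUT+GV (2.42, adjusted p = 2.5e-15). CXCL3 had 72.5, 82.1 and 83.7 CPM in SPM+GV and 15.7, 17.6 and 16.6 CPM in PUT+GV (2.25, adjusted p = 2.4e-22), and its relatives CXCL2 (1.65) and CXCL1 (1.52) also attract neutrophils. CXCL1, CXCL2 and CXCL3 are close copies of one another, so reads could be shared between them. The members that were lower were the homeostatic CCL28 (-0.26) and CCL22 (-0.85), and CCL22 was at about 1 CPM or less. Neither passed the test when SPM+GV replicate 3, PUT+GV replicate 2 or PUT+GV replicate 3 was left out, with an adjusted p between 0.0546 and 0.141. CCL22 also failed without SPM+GV replicate 1 (0.0921) and CCL28 without SPM+GV replicate 2 (0.0747).

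The promoters of CXCL8 and CXCL3 are shown for matches, in capitals, to the AP-1 motif TGANTCA in CXCL8 and to the NF-kB motif in CXCL3. No other motif was marked in either. Both stretches are the 250 bases before the RefSeq start (GRCh38.p14). That of CXCL8 is chr4:73740319-73740568 on the plus strand and that of CXCL3 is chr4:74038690-74038939 on the minus strand. The matches end 130 and 68 bases before the RefSeq start. For CXCL8 this start lies within the gene coordinates given above, so the last bases shown overlap them.
CXCL8: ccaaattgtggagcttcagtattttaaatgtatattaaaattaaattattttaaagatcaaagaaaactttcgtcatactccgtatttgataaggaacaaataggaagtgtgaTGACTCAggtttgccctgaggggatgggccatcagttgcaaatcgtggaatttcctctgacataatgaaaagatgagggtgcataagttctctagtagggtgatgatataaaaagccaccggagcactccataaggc
CXCL3: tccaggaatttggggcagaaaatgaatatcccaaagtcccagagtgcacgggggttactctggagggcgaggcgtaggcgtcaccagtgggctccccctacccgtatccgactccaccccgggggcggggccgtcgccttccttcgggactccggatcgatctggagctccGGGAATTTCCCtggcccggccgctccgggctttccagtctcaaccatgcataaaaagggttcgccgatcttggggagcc

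Cytokine genes moved in both directions. Of 28 tested cytokines and growth factors 14 were higher and 7 lower, with 7 called higher and 2 called lower (median 0.37). IL1A, an alarmin of epithelial cells, had 374, 418 and 423 CPM in SPM+GV and 140.0, 151 and 141 CPM in PUT+GV (1.49, SE 0.042, adjusted p = 1.4e-22). Its natural antagonist IL1RN moved the opposite way, with 92.2, 88.99 and 92.5 CPM in SPM+GV and 192, 189.7 and 199.8 CPM in PUT+GV (-1.09, adjusted p = 2.9e-20). CSF1, a macrophage growth factor, had 16.1, 16.5 and 17.9 CPM in SPM+GV and 5.24, 5.45 and 5.51 CPM in PUT+GV (1.64, adjusted p = 5.2e-14). IL6 (1.30, adjusted p = 9.1e-08) and the scarce TNF (1.57, adjusted p = 4.5e-04), with 1.43 ± 0.345 CPM in SPM+GV and 0.474 ± 0.0821 CPM in PUT+GV, were also higher, and in each of these cytokines the groups did not overlap.

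Most inhibitors that NF-kB induces against itself were higher. Of 20 NF-kB subunits and feedback genes 17 were higher, 8 of them called, and none was lower (median 0.71), although 2 were lower with upper-quartile factors and 3 with library size only. TNFAIP3 (A20), the enzyme that shuts down NF-kB signalling, had 648, 743 and 690.1 CPM in SPM+GV and 158, 158 and 139 CPM in PUT+GV (2.19, SE 0.059, adjusted p = 5.2e-19), again with NT+GV between at 279, 288 and 257 CPM. NFKBIA, which holds NF-kB in the cytoplasm, had 288, 315 and 314 CPM in SPM+GV and 114, 112 and 119.9 CPM in PUT+GV (1.41, adjusted p = 1.4e-22), while NT+GV at 129.7, 126 and 135 CPM lay just above PUT+GV. NFKBIZ (1.42) and the subunit NFKB1 (1.19) were higher as well. The receptors upstream did not share this pattern: of 19 Toll-like receptors and adaptors 9 were higher and 4 lower (median 0.14), but 5 higher and 7 lower with either of those scalings. TLR2, the receptor for bacterial lipoproteins, had 42.5, 38.4 and 40.5 CPM in SPM+GV and 36.1, 35.1 and 38.9 CPM in PUT+GV and did not pass the test (0.14, adjusted p = 0.12), but passed when PUT+GV replicate 3 was left out (0.20, adjusted p = 0.0472), TLR5 (-1.16) and TLR1 (-1.01) were called lower at a few CPM, and the adaptor kinase IRAK2 was called higher (1.09, adjusted p = 3.4e-12).

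Interferon-stimulated genes were higher almost as a body. They encode proteins that cells make in answer to interferon and that limit viruses and intracellular bacteria. Of 30 tested members 26 were higher, 19 of them called, and 1 was lower, with a median of 1.36. IFIT1, which binds foreign RNA, had 35.6, 35.2 and 36.1 CPM in SPM+GV and 9.198, 7.96 and 9.899 CPM in PUT+GV, so that the SPM+GV libraries were nearly equal to each other and all far above PUT+GV (1.98, SE 0.10, adjusted p = 3.0e-13). NT+GV lay between at 22.6, 18.8 and 25.7 CPM. OASL had 38.7, 38.7 and 36.3 CPM in SPM+GV and 11.1, 13.3 and 12.2 CPM in PUT+GV (1.64, adjusted p = 7.9e-17), and IFI44 had 81.6, 78.5 and 82.9 CPM in SPM+GV and 32.3, 33.4 and 33.3 CPM in PUT+GV (1.29, adjusted p = 4.7e-20). The antiviral GTPase MX1 was at 93.8, 124 and 106 CPM in SPM+GV and 41.6, 46.1 and 44.6 CPM in PUT+GV (1.29, adjusted p = 3.7e-07). OAS3, a sensor of double-stranded RNA, was called higher as well (1.02, adjusted p = 1.4e-19). MX2 had the largest value of the list (2.87) but only 2.16 ± 0.513 CPM in SPM+GV and 0.289 ± 0.227 CPM in PUT+GV (SD, n = 3 each). The exonuclease ISG20 was the member that was lower (-0.33, adjusted p = 2.2e-05). Of 15 genes of MHC class I presentation, 9 were higher and 1, HLA-E (-0.20), was lower (median 0.40).

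The IFIT1 promoter (RefSeq, GRCh38.p14, chr10:89392373-89392622, plus strand) is shown because it carries 2 matches, in capitals, to the interferon-stimulated response element TTTCNNTTTC, ending 106 and 93 bases before the start.
IFIT1: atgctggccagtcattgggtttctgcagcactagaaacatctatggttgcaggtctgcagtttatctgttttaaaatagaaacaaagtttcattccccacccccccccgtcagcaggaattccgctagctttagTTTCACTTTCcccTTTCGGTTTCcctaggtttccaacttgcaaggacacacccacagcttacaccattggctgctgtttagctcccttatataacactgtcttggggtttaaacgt

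Motifs were counted on both strands in the 250 bases before the start of genes with a RefSeq promoter, 291 of the genes called higher, 827 of those called lower and 12505 of all tested, as a description with no test. The response element TTTCNNTTTC was in 10.3% of promoters of genes called higher, 2.78% of those called lower and 3.41% of all, and in 16 of 22 interferon list promoters (72.7%). The NF-kB motif was in 14.1%, 7.74% and 7.94% of the same 3 sets, and in 7 of 9 chemokine promoters (77.8%). These 2 motifs were chosen after results were seen. The shares in the interferon and chemokine lists cover tested members with a promoter sequence, called or not. They therefore do not measure a difference between SPM+GV and PUT+GV. The CArG box was in 3.09%, 1.33% and 1.45%. The AP-1 motif TGANTCA was commoner in promoters of both called sets, 9.28% of those called higher and 13.3% of those called lower, against 6.66% of all. The related CRE motif TGACGTCA was in 2.06%, 2.06% and 3.25%, the ATF4 motif TGATGNAA in 4.12%, 3.63% and 2.42%, and the metal response core (TGCACNC or TGCGCNC) in 31.6%, 35.3% and 38.8%. Each motif was counted on its own, also where matches of different motifs overlapped.

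Antimicrobial proteins were divided. Of 16 tested members 6 were called higher, 5 were lower and 3 of those were called (median 0.09, and -0.02 and -0.05 under the other 2 scalings). RNASE7, a secreted ribonuclease that kills bacteria, had 38.6, 49.7 and 44.8 CPM in SPM+GV and 6.28, 8.68 and 8.26 CPM in PUT+GV (2.51, SE 0.11, adjusted p = 3.1e-15). S100A9, a subunit of the metal-binding protein calprotectin, had 41.97, 42.7 and 46.4 CPM in SPM+GV and 15.9, 19.5 and 16.96 CPM in PUT+GV (1.32, adjusted p = 2.1e-13). All SPM+GV libraries exceeded all PUT+GV libraries in both genes, but for S100A9 the NT+GV libraries, at 61.5, 63.7 and 71.05 CPM, were the highest. LCN2 (1.58), which starves bacteria of iron, and the acute-phase protein SAA1 (1.48) were called higher as well. Lysozyme (LYZ), also a marker of leukocytes, had 0.0305, 0.146 and 0.0756 CPM in SPM+GV and 0.753, 0.718 and 0.8200 CPM in PUT+GV (-3.17, adjusted p = 4.7e-05). Complement C3, the centre of the complement cascade, had 52.4, 53.3 and 51.8 CPM in SPM+GV and 14.97, 18.2 and 15.7 CPM in PUT+GV (1.69, adjusted p = 7.9e-19), and 8 of 15 complement genes were higher and 3 lower.

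Genes of prostaglandin signalling moved in both directions. PTGS2 (cyclooxygenase-2), the inducible enzyme of prostaglandin synthesis, had 204, 210.5 and 225 CPM in SPM+GV and 72.2, 66.2 and 66.98 CPM in PUT+GV (1.64, SE 0.076, adjusted p = 3.6e-13). The NT+GV libraries, at 219.6, 219.7 and 226 CPM, lay with SPM+GV and not with PUT+GV. The receptor PTGER4 was called higher (1.52), and HPGD, which inactivates prostaglandins, was called lower (-2.10), with 0.952 ± 0.0571 CPM in SPM+GV and 4.07 ± 1.13 CPM in PUT+GV (SD, n = 3 each). Of the 10 tested members 5 were higher and 4 lower, with enzymes of prostaglandin synthesis on both sides.

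Genes of squamous differentiation were lower with spermine. Of 29 tested members 21 were lower, 9 of them called, and 4 were higher, 2 of them called, with a median of -0.71. AQP3, a channel for water and glycerol in stratified epithelium (chr9:33441156-33447596), had 116, 113 and 135 CPM in SPM+GV and 918, 892 and 1020.0 CPM in PUT+GV. No library of one group came near the other (log2 fold change -2.96, SE 0.10, adjusted p = 2.3e-14). NT+GV lay between at 248, 261 and 290.3 CPM. KRT13, the keratin of suprabasal cells in moist squamous epithelium, had 8.64, 7.31 and 9.79 CPM in SPM+GV and 55.9, 52.5 and 60.3 CPM in PUT+GV (-2.71, SE 0.088, adjusted p = 4.4e-20), and here NT+GV, at 11.5, 11.6 and 13.3 CPM, stood close to SPM+GV. The desquamation protease KLK7 (-2.27) and the keratin KRT80 (-0.71) were lower too. The called members that were higher, KRT4 (1.07) and CALML3 (1.39), lay under 1 CPM in every library. KRT4 did not pass without SPM+GV replicate 2 (adjusted p = 0.0529), nor CALML3 without SPM+GV replicate 1 or 3 or PUT+GV replicate 2 or 3 (adjusted p from 0.105 to 0.219).

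**Figure D3:**
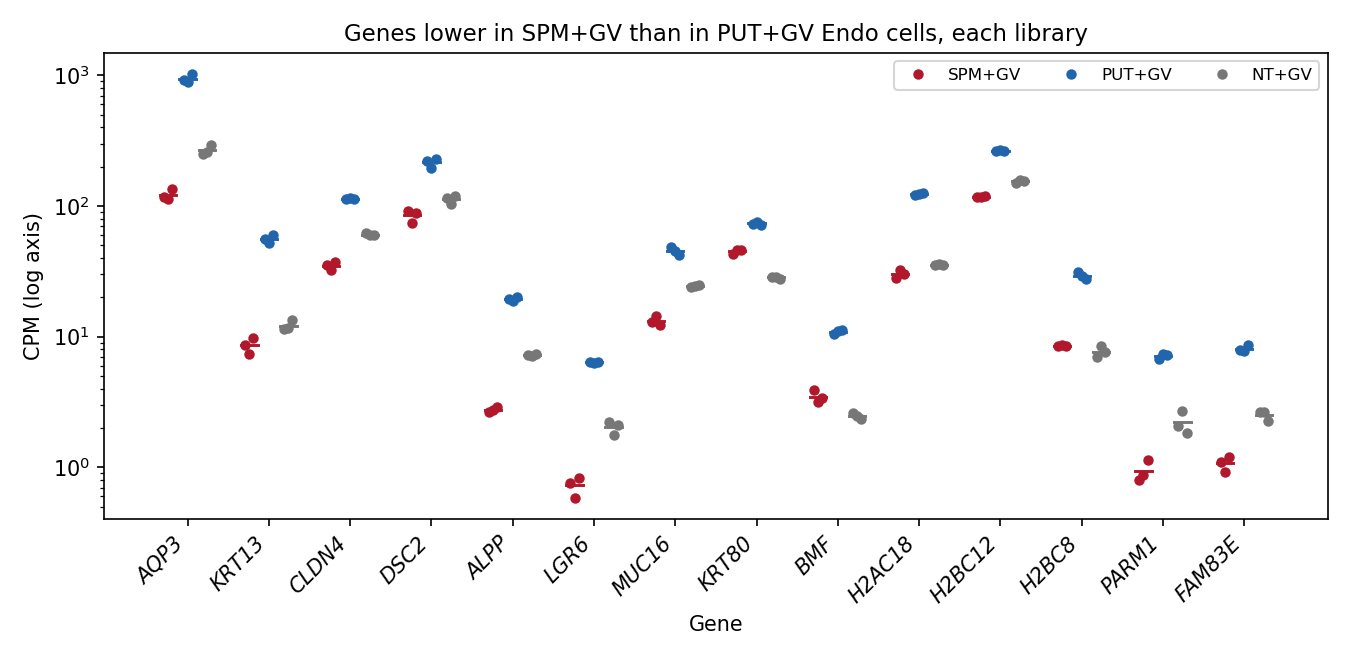
Level in CPM on a log axis of 14 genes lower in SPM+GV (red) than in PUT+GV (blue), with NT+GV (grey), each point a library and each line a group mean. The 3 SPM+GV libraries lie below the 3 PUT+GV libraries in every gene drawn, by a log2 fold change of -2.96 for AQP3 and -0.71 for KRT80.

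Other genes with the largest negative differences had related or separate roles. ALPP, the placental alkaline phosphatase, had 2.66, 2.74 and 2.91 CPM in SPM+GV and 19.5, 18.9 and 20.1 CPM in PUT+GV (-2.82, adjusted p = 6.7e-22). LGR6, a stem cell receptor for R-spondins, had 0.764, 0.585 and 0.832 CPM in SPM+GV and 6.44, 6.28 and 6.36 CPM in PUT+GV (-3.12, adjusted p = 5.7e-16), and MAOB, a mitochondrial amine oxidase, had 0.519, 0.585 and 0.756 CPM in SPM+GV and 3.92, 3.56 and 4.19 CPM in PUT+GV (-2.65, adjusted p = 1.2e-13). In all 3 genes NT+GV lay between the other groups. PARM1 (-2.94), FAM83E (-2.91), the myosin MYO1G (-2.88), NACAD (-2.70) and KRT9 (-2.58) completed the protein-coding genes with the largest decreases, beside histone genes given further on. Only called genes with a mean of at least 2 CPM and groups that do not overlap were ranked. At the other end stood ICAM4, an adhesion molecule, with 6.78, 6.396 and 6.46 CPM in SPM+GV and 0.188, 0.299 and 0.146 CPM in PUT+GV (4.93, adjusted p = 1.6e-14), DLX2, a homeobox factor, with 55.8, 66.4 and 63.7 CPM in SPM+GV and 8.29, 8.32 and 7.21 CPM in PUT+GV (2.96, adjusted p = 5.2e-22), the protease ADAMTS6 (2.65) and the growth factor FGF18 (2.45).

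Junction genes were lower as a rule in SPM+GV than in PUT+GV. Of 18 tight junction genes 12 were lower and 4 higher (median -0.28), and of 13 desmosome genes 10 were lower and 2 higher (median -0.41). Against NT+GV, tight junction genes had 7 higher and 2 lower in SPM+GV (median 0.065), and 11 and 3 in PUT+GV (median 0.38). Desmosome genes had 1 higher and 10 lower in SPM+GV (median -0.24), and 7 and 3 in PUT+GV (median 0.095). CLDN4, which seals the space between cells, had 35.4, 32.5 and 37.1 CPM in SPM+GV and 114, 115 and 113 CPM in PUT+GV (-1.70, SE 0.054, adjusted p = 1.1e-21). Its scarce relative CLDN3 (-2.64) and the scarce TJP3 (-2.52) were the other called members. DSC2, a cadherin of the desmosome, had 92.2, 74.01 and 88.2 CPM in SPM+GV and 222, 195 and 229 CPM in PUT+GV (-1.34, adjusted p = 9.9e-11), while desmoplakin (DSP), which ties desmosomes to keratin, had 1895, 1814 and 1849 CPM in SPM+GV and 2860.0, 2628 and 2640.0 CPM in PUT+GV, a smaller difference (-0.55, adjusted p = 5.8e-14). Cadherins were split evenly, 6 higher and 6 lower of 14: PCDH10 had 13.3, 17.3 and 15.9 CPM in SPM+GV and 6.56, 6.79 and 6.97 CPM in PUT+GV (1.19, adjusted p = 3.3e-10), and N-cadherin (CDH2) was called lower (-1.67).

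The keratins did not move together. KRT8 had 231, 258 and 245 CPM in SPM+GV and 533, 526 and 519 CPM in PUT+GV (-1.10, adjusted p = 3.2e-20), whereas its usual partner KRT18 had 341, 373 and 377 CPM in SPM+GV and 264, 268 and 246 CPM in PUT+GV and was higher (0.49, adjusted p = 4.4e-11). KRT7, another keratin of simple epithelium, was higher (0.71, adjusted p = 4.3e-16). Among basal and stress keratins, 6 of 12 were lower and 1 higher (2 without SPM+GV replicate 2), with KRT16, induced in wounded epithelium, at -1.24 and KRT15 at -0.90. The membrane mucin MUC16 had 12.98, 14.4 and 12.3 CPM in SPM+GV and 48.8, 45.5 and 42.5 CPM in PUT+GV (-1.79, adjusted p = 5.4e-20), and EPCAM was lower by a smaller difference (-0.52). Of the tested endothelial markers VWF (-2.30, 0.3903 ± 0.0329 CPM in SPM+GV and 1.95 ± 0.454 CPM in PUT+GV) and ESAM (-2.68, 0.187 ± 0.0333 CPM and 1.21 ± 0.3402 CPM) were called lower at levels near 1 CPM, and TEK did not pass (-0.29, adjusted p = 0.42).

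Proteases that cut the matrix were not generally higher. Of 16 tested matrix metalloproteinases and their inhibitors 4 were higher and 8 lower (median -0.23), with 5 lower without PUT+GV replicate 2. MMP9, a gelatinase, had 12.1, 9.25 and 10.3 CPM in SPM+GV and 8.01, 7.18 and 9.196 CPM in PUT+GV (0.38, SE 0.10, adjusted p = 0.0018; 0.24 and adjusted p = 0.05 with library size only), and both groups were below NT+GV at 18.6, 16.2 and 19.5 CPM. TIMP2, an inhibitor of these enzymes, had 41.3, 37.1 and 41.6 CPM in SPM+GV and 82.3, 78.9 and 83.2 CPM in PUT+GV (-1.02, adjusted p = 1.2e-17). The urokinase PLAU was called higher (1.01). Attachment genes were more often higher, 14 of 22 integrins, laminins and matrix genes against 5 lower (median 0.23). Against NT+GV this list was mostly lower, 2 higher and 13 lower in SPM+GV (median -0.19) and 4 and 14 in PUT+GV (median -0.55). The laminin receptor subunit ITGA3 had 1124, 1148 and 1104 CPM in SPM+GV and 514, 534 and 507 CPM in PUT+GV (1.12, adjusted p = 2.4e-22), and the hemidesmosome collagen COL17A1 was higher by 0.81. In both, NT+GV was at the level of SPM+GV or slightly above.

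Developmental regulators changed one by one. HES1, the main target of Notch, had 142, 175 and 176 CPM in SPM+GV and 53.7, 48.5 and 52.7 CPM in PUT+GV (1.67, adjusted p = 1.1e-16), although of 19 Notch pathway genes 6 were higher and 7 lower. ID2, an inhibitor of differentiation factors, had 9.47, 10.2 and 10.7 CPM in SPM+GV and 3.45, 3.47 and 4.01 CPM in PUT+GV (1.47, adjusted p = 2.0e-12), and BMP2 was called higher (1.19). Of 10 tested epithelial-mesenchymal transition factors 5 were higher, among them ZEB1 (1.73), the scaffold NEDD9 (1.24) and SNAI2 (0.85), and 2 were lower. SNAI1 had 22.1, 30.6 and 27.2 CPM in SPM+GV and 26.5, 28.4 and 25.7 CPM in PUT+GV, which overlap (-0.015, adjusted p = 0.92), and both groups stood above NT+GV at 9.04, 10.4 and 8.29 CPM.

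Many replication-dependent histone genes were lower in SPM+GV than in PUT+GV. Of 45 tested members 23 were lower, 15 of them called, and 5 were higher, 4 of them called, with a median of -0.45. All genes of this list together took 0.05574 to 0.06028% of counts in SPM+GV, 0.1115 to 0.1147% in PUT+GV and 0.04753 to 0.05065% in NT+GV. Against NT+GV, 24 members were higher and 3 lower in SPM+GV (median 0.60), and 37 higher and 0 lower in PUT+GV (median 1.32). H2AC18 had 28.2, 32.1 and 30.4 CPM in SPM+GV and 121, 124 and 125 CPM in PUT+GV (-2.03, SE 0.053, adjusted p = 5.4e-23). H2BC12 had 117, 117 and 119 CPM in SPM+GV and 264, 266 and 264 CPM in PUT+GV (-1.17, adjusted p = 6.3e-22), and H2BC8 had 8.46, 8.59 and 8.43 CPM in SPM+GV and 31.3, 28.97 and 27.8 CPM in PUT+GV (-1.79, adjusted p = 1.2e-16). These 3 genes varied little within a group and their groups were well apart. H2AC7 (0, 22 and 0 counts in SPM+GV and 287, 200 and 257 in PUT+GV, -4.85) and H3C4 (0, 0 and 22 counts in SPM+GV and 152, 157 and 133 in PUT+GV, -4.08) were at 0 in 2 of 3 SPM+GV libraries. H3C4 lost its call without SPM+GV replicate 1 (adjusted p = 0.0575) or 2 (0.0526). The opposite direction was taken by H2BC18 (1.55), H2BC6 (1.54), H2AC12 (1.47) and H2BC4, with 12.4, 14.1 and 15.1 CPM in SPM+GV and 6.25, 6.97 and 6.33 CPM in PUT+GV (1.09, adjusted p = 3.1e-11). Histone genes have near-identical copies, so the share of single genes is uncertain, H2AC18 included. The cell cycle list had 12 members higher and 10 lower of 35 and none called, but it had 5 higher and 17 lower with upper-quartile factors and 4 and 20 with library size only, and the proliferation marker MKI67 was at -0.33.

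Stress and metabolic genes were mostly higher in SPM+GV than in PUT+GV, by small amounts. HMOX1, which breaks down haem, had 132, 196 and 154 CPM in SPM+GV and 24.1, 31.8 and 24.8 CPM in PUT+GV (2.57, SE 0.13, adjusted p = 1.9e-11). Of 29 NRF2 antioxidant genes 18 were higher and 7 lower (median 0.30), with NQO1 (1.10), the glutathione synthesis subunit GCLM (1.15), the cystine importer SLC7A11 (1.68) and the autophagy receptor SQSTM1 (0.97). Of 29 ATF4 targets 19 were higher and 5 lower (median 0.33), and ATF4 itself was higher by 0.82. The unfolded protein response list had 12 of 17 higher and 1 lower, heat shock chaperones 11 of 19 higher and 4 lower, and glycolysis and hypoxia genes 19 of 28 higher and 4 lower (median 0.44). Cholesterol synthesis and uptake had 17 of 28 higher and 2 lower, and the sterol exporter ABCG1 was called lower, with 7.500 ± 1.34 CPM in SPM+GV and 23.9 ± 1.97 CPM in PUT+GV (SD, n = 3 each; -1.66). With upper-quartile factors and with library size only, the unfolded protein response list narrowed to 8 higher against 4 and 5 lower, and the cholesterol list to 13 higher against 6 and 7 lower. Against NT+GV, the cholesterol list had 2 higher and 16 lower in SPM+GV (median -0.13), and 3 and 19 in PUT+GV (median -0.39). In the same order, NRF2 genes had 10 and 6 (median 0.027), and 5 and 14 (median -0.14). ATF4 targets had 9 and 6 (0.043), and 4 and 18 (-0.25). The unfolded protein response list had 3 and 5 (0.013), and 4 and 10 (-0.28). Heat shock chaperones had 7 and 6 (0.031), and 3 and 9 (-0.11). Glycolysis and hypoxia genes had 14 and 6 (0.12), and 6 and 14 (-0.21). Lysosome genes were the exception in SPM+GV against PUT+GV, with 6 of 27 higher and 14 lower (median -0.15) and the calcium channel MCOLN1 at -0.96.

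Single regulators stood out in these lists. TXNIP, a glucose-responsive inhibitor of thioredoxin, had 274, 338 and 310.3 CPM in SPM+GV and 88.9, 100.5 and 91.3 CPM in PUT+GV (1.72, adjusted p = 2.5e-09), and its relative ARRDC4 had 73.4, 86.8 and 84.4 CPM in SPM+GV and 15.5, 16.9 and 16.6 CPM in PUT+GV (2.31, adjusted p = 1.4e-22). The metallothionein MT2A had 1604 ± 70.7 CPM in SPM+GV and 752 ± 33.8 CPM in PUT+GV (1.09). The deacetylase SIRT1 was called higher (1.6, adjusted p = 2.6e-18), as was TIPARP (1.27), a target of the aryl hydrocarbon receptor. Among BCL2 family genes the pro-death BMF had 3.88, 3.14 and 3.402 CPM in SPM+GV and 10.4, 10.9 and 11.2 CPM in PUT+GV (-1.64, adjusted p = 8.5e-14), and the pro-survival MCL1 was higher (0.99).

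The level without polyamine shows on which side each pretreatment departed. The comparisons of SPM+GV and of PUT+GV with NT+GV share the NT+GV libraries, and each shares its polyamine libraries with the comparison above. Values of genes and lists are therefore given only side by side. Of all tested genes, 21.9% were higher and 21.1% lower in SPM+GV than in NT+GV, and 27.9% and 28.2% in PUT+GV. For EGR1 the log2 fold changes over NT+GV were 4.48 with spermine and -0.0087 with putrescine, for CXCL8 0.93 and -1.36, for IFIT1 0.68 and -1.30, for AQP3 -1.14 and 1.82, for PTGS2 -0.057 and -1.70, and for S100A9 -0.58 and -1.90. CXCL8, IFIT1 and AQP3 thus departed from NT+GV in opposite directions under the 2 pretreatments, EGR1 chiefly with spermine and PTGS2 chiefly with putrescine.

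Without bacteria the 2 pretreatments differed less. In SPM+noGV against PUT+noGV 167 genes were called higher (0.891%) and 282 called lower (1.5%), 449 in all (2.4%). Of the 578 genes called higher with bacteria, 84 were called higher without them and 2 were called lower, and of the 1550 called lower, 173 were called lower and 8 higher. The test of the difference itself, the interaction of the SPM against PUT comparison with GV, called 1135 genes (6.06%), 360 with a larger (1.92%) and 775 with a smaller value with bacteria (4.14%). Upper-quartile factors turned this split to 278 larger and 1023 smaller, and library size only to 260 and 1140.

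Early response and NF-kB genes differed more with bacteria than without, and chemokines did so in part. In the early gene list 27 of 30 were higher and 1 lower with bacteria (median 0.73), against 6 higher and 16 lower without them (median -0.24), where 16.3% and 17.7% of all genes were. The interaction passed the test in 27 of the 30, all with a larger value with bacteria, against 24.3% of all genes with a larger and 15.7% with a smaller value. EGR1 was at 99.7 ± 8.19 CPM in SPM+noGV and 41.3 ± 3.28 CPM in PUT+noGV (SD, n = 3 each), a log2 fold change of 1.27 (interaction 3.22, adjusted p = 1.6e-11). JUN had 135 ± 4.05 CPM in SPM+noGV and 138 ± 7.91 CPM in PUT+noGV (-0.030, interaction 1.76, adjusted p = 2.7e-11). Several genes turned their direction, being higher in SPM+GV and lower in SPM+noGV than with putrescine: JUNB (0.89 with and -0.52 without bacteria), NFKBIA (1.41 and -0.15), PHLDA1 (1.13 and -0.32), PPP1R15A (1.70 and -0.21), USP43 (1.45 and -0.31), SNAI2 (0.85 and -0.44) and KRT18 (0.49 and -0.23). Of 20 NF-kB genes 17 were higher and none lower with bacteria, against 6 higher and 7 lower without, and the interaction passed in 18, all with a larger value with bacteria. Of 11 chemokines 8 were higher and 2 lower with bacteria, and 6 higher and none lower without, and the interaction passed in 6 with a larger and 2 with a smaller value. CXCL10 was higher by 1.91 with and 1.49 without bacteria, and its interaction did not pass (0.42, adjusted p = 0.69). CXCL8 was scarce without bacteria, 10.6 ± 1.01 CPM in SPM+noGV and 8.502 ± 0.431 CPM in PUT+noGV (0.32), and its interaction was 1.98 (adjusted p = 1.5e-12). ODC1 was equal without bacteria, 234 ± 11.8 CPM in SPM+noGV and 234 ± 10.6 CPM in PUT+noGV, and its interaction was 0.96 (adjusted p = 2.4e-13).

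**Figure D4:**
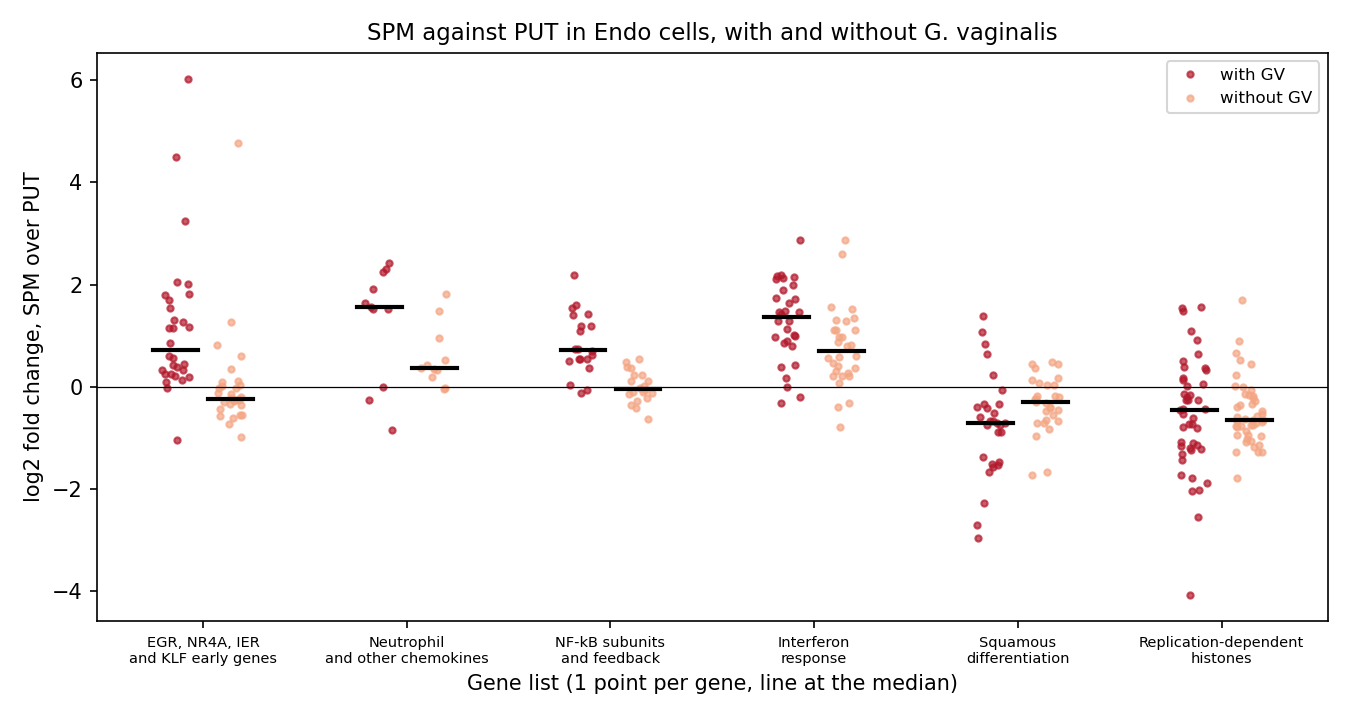
Log2 fold change of SPM over PUT in Endo cells with bacteria (dark red) and without (light), each point a gene of 6 lists and each black line the median of the list. The medians of early genes are 0.73 with and -0.24 without bacteria, and those of interferon genes 1.36 and 0.70.

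Interferon and histone genes differed in both settings. In the interferon list 26 of 30 were higher and 1 lower with bacteria (median 1.36), and 23 higher and 1 lower without (median 0.70), and the interaction passed in 17 with a larger and 2 with a smaller value with bacteria. IFIT1 had 119.5 ± 5.48 CPM in SPM+noGV and 55.7 ± 4.63 CPM in PUT+noGV (1.10), above its levels with bacteria, with an interaction of 0.88 (adjusted p = 8.0e-06). Its mean in NT+noGV was 130.5 CPM, above the means of both pretreatments without bacteria. For MX1 the log2 fold changes were 1.29 with and 1.12 without bacteria (interaction 0.17, adjusted p = 0.57). Of 45 histone genes 23 were lower and 5 higher with bacteria (median -0.45), and 19 lower and 2 higher without (median -0.65), and the interaction passed in 8 upward and 6 downward. H2BC12 was lower by nearly the same amount in both settings (-1.17 with and -1.14 without bacteria, interaction -0.028, adjusted p = 0.71). AQP3 had 74.9 ± 4.54 CPM in SPM+noGV and 248 ± 16.2 CPM in PUT+noGV (-1.73, interaction -1.24, adjusted p = 8.5e-07). TXNIP (1.72 with and 1.80 without bacteria) and CSF1 (1.64 and 1.59) had interactions near 0 (-0.083 and 0.051, adjusted p = 0.81 and 0.93).

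The same comparison in the other lines was used only to test where Endo cells differed. In one model of all 72 libraries with 21195 genes tested, SPM+GV against PUT+GV called 784 genes higher (3.7%) and 1791 lower (8.45%) in Endo, 1825 (8.61%) and 1775 (8.37%) in Ecto, and 930 (4.39%) and 1411 (6.66%) in VK2. The difference between lines was called for 1401 genes between Endo and Ecto (6.61%), 316 with a larger (1.49%) and 1085 with a smaller value in Endo (5.12%), and for 658 between Endo and VK2 (3.1%), 200 larger (0.944%) and 458 smaller (2.16%). At an adjusted p under 0.05 alone, 17.8% of genes had a larger and 14.2% a smaller value in Endo than in Ecto, and 14.8% and 7.33% against VK2.

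Histone genes set Endo cells apart from both other lines. The median log2 fold change of the 45 histone genes was -0.45 in Endo, 2.00 in Ecto and 0.97 in VK2, and 40 of them had a smaller value in Endo than in Ecto and 35 a smaller one than in VK2, with none larger. H2BC8 was lower in Endo (-1.79) and higher in Ecto (60.2 ± 11.4 CPM in SPM+GV and 12.4 ± 0.972 CPM in PUT+GV, 2.29) and VK2 (1.06), with differences of -4.08 (adjusted p = 4.2e-35) and -2.85 (adjusted p = 8.3e-24). H4C8 was lower in Endo (-0.62) and higher in Ecto (3.04) and VK2 (2.05).

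The interferon list went the other way. Its median was 1.36 in Endo, -0.04 in Ecto and 0.79 in VK2, and 24 of 30 members had a larger value in Endo than in Ecto and 16 a larger one than in VK2, with 3 and 1 smaller. MX1 was higher in Endo (1.29) and lower in Ecto (43.2 ± 3.46 CPM in SPM+GV and 87.3 ± 3.93 CPM in PUT+GV, -1.01), a difference of 2.30 (adjusted p = 4.1e-16). OASL differed likewise (-0.20 in Ecto, difference 1.84, adjusted p = 4.7e-16). KRT13 was strongly lower in Endo and slightly higher in Ecto (0.49, difference -3.20, adjusted p = 2.1e-20), and lower in VK2 (-1.60). SOX9, a regulator of epithelial progenitors, was lower in Endo (-0.39) and higher in Ecto (1.39) and VK2 (0.79).

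**Figure D5:**
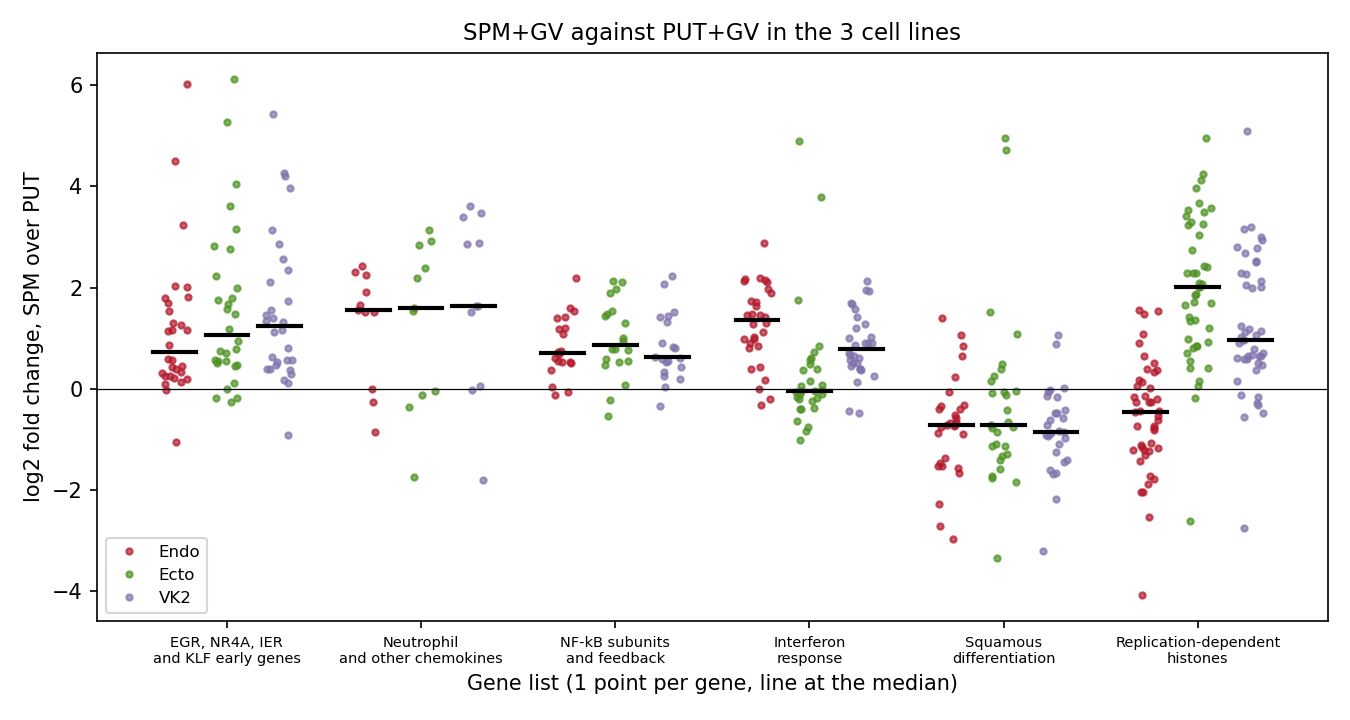
Log2 fold change of SPM+GV over PUT+GV in Endo (red), Ecto (green) and VK2 cells (violet), each point a gene of 6 lists and each black line the median. Histone genes have medians of -0.45, 2.00 and 0.97 in the 3 lines, and chemokines 1.55, 1.59 and 1.64.

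Other groups were more alike in sign between lines. Chemokine medians were 1.55 in Endo, 1.59 in Ecto and 1.64 in VK2, yet CXCL8 was less different in Endo (2.30) than in Ecto (3.13) and VK2 (3.39), by -0.84 (adjusted p = 5.9e-07) and -1.10 (adjusted p = 3.5e-09). Early gene medians were 0.73, 1.06 and 1.24, and 19 of 30 had a smaller value in Endo than in Ecto against 5 larger, and 16 a smaller one than in VK2 against none larger. RASD1, a small GTPase, was 1.26 in Endo and 4.27 in VK2 (difference -3.01, adjusted p = 2.8e-22). AQP3 was lower in all 3 lines (-2.96 in Endo, -3.34 in Ecto and -3.21 in VK2), and the difference of 0.38 against Ecto did not pass the test (adjusted p = 0.093). ODC1 was higher in all 3 lines by similar values (0.96, 0.99 and 1.07), and differences between lines did not pass (adjusted p = 0.78 and 0.24). MMP9 was higher in Endo and lower in Ecto (-1.0, difference 1.38, adjusted p = 1.4e-12).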

How the data were processed

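Ribosome-depleted, strand-specific total RNA was sequenced by the authors, quantified per transcript with Salmon and summed to genes with tximeta on annotation release 44. The deposited table holds the authors' estimated counts per gene for 62266 genes, which the authors did not normalize, and each of the values was already a whole number. All 62266 gene identifiers and 62229 coordinates equal those of that release. Whether duplicates were removed by molecular identifiers is not given in the sources used here. Columns were matched to samples by their labels, and no column was left out. The deposited sample sheet was not used as a measurement.

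The 24 Endo libraries were fitted together in edgeR 4.0.16 (R 4.3.3, limma 3.58.1), with TMM factors, filterByExpr, 8 group coefficients, no replicate block and a robust quasi-likelihood fit. Differences between lines came from one such model of all 72 libraries. Two-sided p-values were corrected over all tested genes with the Benjamini-Hochberg method. The steps were tested on simulated data. Changes were planted there only in genes above a minimum expected count, so the recovery of changes in scarcer genes was not covered. CPM are TMM-scaled, and compare a gene between libraries, not genes of different length. The common biological coefficient of variation was 0.0451, and each replicate pair of SPM+GV and of PUT+GV differed by more than sampling noise (chi-square divided by its degrees of freedom, 3.04 to 4.78). DESeq2 1.42.0, other scalings, filters and thresholds, the replicate number as a block, and leaving out each library were tried.

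The comparison, its gene lists and the rule for named genes were chosen with earlier results of these data known. Named were the 12 genes with the highest and the 12 with the lowest fold change among called protein-coding genes with a mean of at least 2 CPM and groups that do not overlap, up to 4 members of each list with the smallest adjusted p, all polyamine genes, genes the study names, and up to 6 genes of the interaction and 4 of each line difference. Of the 12 highest, 1 gene without a symbol was left out of the text. Of the list members, 1 gene that the rule names is not reported here. IFIT1, MX1, MX2, CXCL1, EPGN, IL6, TNF, KRT18, KRT4, CALML3, KLK7, DSC2, CLDN3, TJP3, CDH2, HPGD, SLC7A11, H2BC4, H2BC6, H2BC18, H2AC12, TLR1, TLR2, TLR5, SIK1, FOSL2, CCL22, CCL28, ISG20, HLA-E, BCL2A1, CXCL10, IL33, SLC2A3 and SLC40A1 were chosen after their values were seen. Figures were drawn with matplotlib 3.10.9 in Python 3.11.15.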

Additional observations from a re-analysis of the deposited data

Results flagged for a closer look

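The interaction of GV with the SPM against PUT comparison was called for 1135 genes in Endo, and the comparison with bacteria differed for 1401 genes between Endo and Ecto and for 658 between Endo and VK2. The genes given here are those named above whose value passed the test in both settings or lines with opposite sign, or that the rule for named genes took from these tests, and whose difference was itself called.

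The following genes were higher with bacteria and lower without them in SPM against PUT. The log2 fold changes with bacteria, without bacteria and their difference were 1.70, -0.21 and 1.91 for PPP1R15A, 1.41, -0.15 and 1.55 for NFKBIA, 0.86, -0.78 and 1.64 for FOSB, 0.89, -0.52 and 1.41 for JUNB, and 0.39, -0.74 and 1.12 for IER3. The adaptor kinase IRAK2 had 1.09, -0.32 and 1.41, PHLDA1 had 1.13, -0.32 and 1.44, and SIRT1 had 1.6, -0.20 and 1.8. The values were 1.24, -0.55 and 1.78 for NEDD9, 1.19, -0.44 and 1.63 for BMP2, 0.85, -0.44 and 1.29 for SNAI2, 1.45, -0.31 and 1.76 for the deubiquitinase USP43, and 0.38, -0.81 and 1.19 for MMP9, whose difference with bacteria did not pass with library size only. The chemokine CCL22 (-0.85, 0.96 and -1.81) and the keratin KRT15 (-0.90, 0.31 and -1.21) were lower with bacteria and higher without.

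Several histone genes and single keratins opposed Endo to Ecto. The difference, Endo minus Ecto, was -4.08 for H2BC8, -3.67 for H4C8, -2.45 for H2AC18 (0.42 in Ecto), -1.33 for H2BC12 (0.16 in Ecto) and -3.74 for ENSG00000282988, a gene without a symbol, whose log2 fold change was -0.94 in Endo and 2.80 in Ecto. It was -3.20 for KRT13, -2.13 for KRT16 (0.89 in Ecto), -1.45 for KRT15 (0.55 in Ecto) and -1.78 for SOX9. Of the 12 basal and stress keratins, 7 had a larger value in Endo than in Ecto and 3 a smaller one. MX1 and MMP9 were the opposite case, higher in Endo and lower in Ecto, by 2.30 and 1.38.

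Between Endo and VK2 the difference was -2.85 for H2BC8, -2.67 for H4C8 (2.05 in VK2), -1.19 for SOX9 and -3.4 for ENSG00000282988, all lower in Endo and higher in VK2. RASD1 was higher in both lines, but less so in Endo (-3.01).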

How the results depend on the processing

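With bacteria, more genes were called lower than higher under every alternative with a fold threshold, and without one 6011 were higher and 5146 lower. The counts with bacteria, without bacteria and for their interaction were 989, 123 and 594 among genes with a mean of at least 1 CPM, 484, 94 and 276 at a log2 fold change of at least 2, and 11157, 6381 and 7510 without a fold threshold. Leaving out 1 library gave 2072 to 2177, 409 to 475 and 1034 to 1128 genes, and 1425 to 1496 and 600 to 633 for the differences of Endo from Ecto and VK2. Upper-quartile factors gave 474 called higher and 1893 lower with bacteria, and library size only 452 and 1988. For the interaction they lowered the share with a larger value to 21.4% and 18.6%, against 31.7%. DESeq2 called 2102, 321 and 919 genes. With the replicate number as a block, 2149, 470 and 1150 genes were called, and 1419 and 665 for the line differences. The numbers were not shown to pair the libraries: deviations of same-numbered libraries correlated by 0.0567, 0.255 and 0.288 with bacteria and by 0.0512, 0.0744 and 0.328 without. Each SPM+GV library correlated best with its own number, which did not hold for SPM+noGV replicate 2.

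Of 2113 recomputed gene values 2077 kept their direction and side of the threshold, 26 no longer passed, 4 newly passed and 6 changed sign. The sign changed for OAZ1 (-0.0274 with upper-quartile factors, -0.0547 with library size only), TLR2 (-0.00205 with library size only) and SNAI1 (0.00495 with DESeq2, and -0.111 to 0.118 when libraries were left out, positive without SPM+GV replicate 1 or PUT+GV replicate 2). TLR2 passed with the replicate block (0.14, adjusted p = 0.0069). MMP9 did not pass with library size only. H3C4 had an adjusted p of 0.278 with DESeq2, and SMOX passed with upper-quartile factors (-0.21) and library size only (-0.24). Of 1100 recomputed list counts 85 moved by more than 1.5 times, most of them under those scalings. The cause of these changes was not tested. Counting limits genes below about 1 CPM.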

Other observations

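Some gene groups not described above moved in single members. Of 12 tested iron handling genes 4 were higher and 3 lower in SPM+GV than in PUT+GV, and the iron exporter SLC40A1 was called lower, with 0.275, 0.439 and 0.491 CPM in SPM+GV and 1.16, 1.11 and 1.26 CPM in PUT+GV (-1.56, adjusted p = 7.5e-05). The glucose transporter SLC2A3 was called higher at a low level, 0.559 ± 0.1803 CPM in SPM+GV and 0.211 ± 0.103 CPM in PUT+GV (1.38, adjusted p = 0.0049). The pro-survival NF-kB target BCL2A1, scarce in all libraries, had 0.489, 0.694 and 0.378 CPM in SPM+GV and 0.0314, 0.1197 and 0.117 CPM in PUT+GV (2.48, adjusted p = 1.5e-04). CXCL10, a chemokine that interferon induces, had 1.92, 2.45 and 1.89 CPM in SPM+GV and 0.534, 0.539 and 0.586 CPM in PUT+GV (1.91, adjusted p = 6.1e-07), and the alarmin IL33 had 0.502 ± 0.125 CPM in SPM+GV and 0.1896 ± 0.0696 CPM in PUT+GV (1.39, adjusted p = 0.015), below NT+GV at 0.981 ± 0.2499 CPM (SD, n = 3 each). IL33 did not pass without SPM+GV replicate 1 (adjusted p = 0.0672) or PUT+GV replicate 1 (0.0645).

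Of 17 circadian clock genes 8 were higher and 5 lower, of 32 chromatin enzymes 19 were higher and 7 lower, of 9 aryl hydrocarbon receptor genes 6 were higher and 1 lower, and of 12 inflammasome and gasdermin genes 5 were higher and 2 lower. Under library size only, iron handling had 2 higher and 7 lower, chromatin enzymes 11 and 10, clock genes 7 and 6, and inflammasome genes 3 and 3. The aryl hydrocarbon receptor list had 2 lower without SPM+GV replicate 3, and the inflammasome list 1 lower without SPM+GV replicate 1 or 3.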
